A study of Rattus norvegicus with 6 samples.

Results

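The genes described here were lower in the rat heart primordium after its first heartbeats than before them. They were found with a rule that uses the signals themselves: a probe had to carry a gene symbol, to be well above background on all 6 arrays, to be lower on every post-heartbeat array than on every pre-heartbeat array, and to differ between the group means by at least 1.5 fold. Of 19977 probes with a gene symbol, 12240 probes of 10275 genes were well above background on all 6 arrays, and 123 probes of 114 genes met the whole rule, which is 1.0% of these probes and 1.11% of these genes. Without the demand on size, 783 of the 12240 probes (6.40%) were lower on all post-heartbeat arrays. With the signs turned, the same rule was met by 299 probes of 277 genes (2.44%). As the members were chosen for the difference between the groups, that difference is given below as a description and no test is made of it. The heart primordia came from embryos of the strain that the labels spell Wister rat, at embryonic day 10 (E10). Both groups were untreated and carried no engineered allele that the labels name. By the labels, the middle of the primordium was still flat in the pre-heartbeat group and already raised in the post-heartbeat group, with 3 samples in each group and 1 array for each sample, and whether several embryos were pooled for 1 sample is not stated in the labels. The groups therefore stand for a stage judged from the form of the embryo, with no agent that stops or starts the beat.

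In the early embryo, the heart forms from mesoderm that lies below the head folds and against the foregut endoderm. The same region holds the anterior endoderm and the mesoderm in front of the notochord, which secrete antagonists of Wnt, bone morphogenetic protein (BMP) and Nodal signals and so protect the forming head from posterior signals. The rostral neural plate, the surface ectoderm, the endothelial cells of the future endocardium and the yolk sac endoderm are its other neighbours. Several members below are well known from those tissues, and as the samples were whole dissected primordia, fewer cells of a type and less RNA per cell cannot be told apart.

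The signal of a probe is given as log2 of its processed intensity minus the 75th percentile of its array, so that a probe at 0 is brighter than most and a strongly negative value is close to background. Where 6 values are given, they stand in the order of replicates 1, 2 and 3 of the pre-heartbeat group and then of the post-heartbeat group, and a difference is the post-heartbeat mean minus the pre-heartbeat mean on the log2 scale. The 75th percentile of the 6 arrays lay between 1145.76 and 1701.98 intensity units, and between 39375 and 41327 of 58717 spots on an array were well above background. The first slide carried replicate 1 of the pre-heartbeat group with replicates 1 and 2 of the other, and the second slide carried the remaining arrays. By limma, 4 of the 18762 tested probes (0.0213%) were called lower after heartbeat initiation and 29 (0.155%) higher, and 562 (3.0%) and 720 (3.84%) had an unadjusted p under 0.05. Once the slide was a block, 91 (0.485%) were called lower and 231 (1.23%) higher. Between the slides, 17.4% of the 18762 tested probes differed (limma adjusted p under 0.05). All 20 cardiomyocyte markers looked for were well above background on all arrays. Their summed level, as a multiple of the 75th percentile, was between 415 and 698 before and between 774 and 919 after heartbeat initiation. Nothing in the labels says that the 3 samples of a group came from separate litters or extractions, so their spread may be in part technical.

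By the size of the mean difference, the neuropeptide gene Tac1 came first, at 3.7 fold, followed by the synaptic gene Lgi1 at 3.19, the homeobox gene Dmbx1 at 3.17, the cadherin Cdhr1 at 3.07, the BMP antagonist Grem1 at 3.04 and the enzyme Crym at 3.03 fold. The differences of the 114 genes lay between -1.89 and -0.59, with a median of -0.80, and 22 genes were lower by 2 fold or more. Over all 12240 probes, the median difference was -0.026. The gap between the lowest pre-heartbeat and the highest post-heartbeat array had a median of 0.30 over the member genes. It was above 0.5 for 25 genes and under 0.1 for 10 genes.

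**Figure D1:**
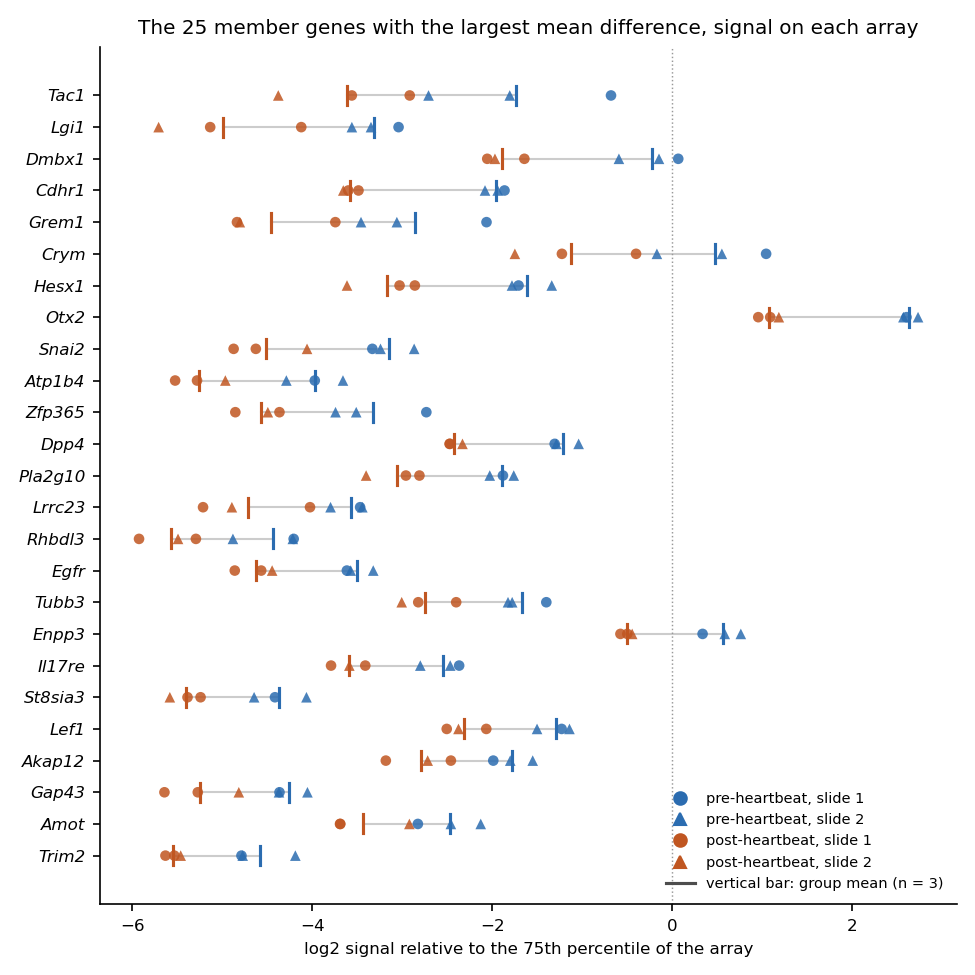
Signal of the 25 member genes with the largest mean difference on each of the 6 arrays. The horizontal axis is log2 signal over the array's 75th percentile, color gives the group, circles are arrays on slide 1 and triangles arrays on slide 2, and vertical bars are group means (n = 3). The pre-heartbeat values of Otx2, between 2.57 and 2.73, lie far to the right of all other values. The 3 values of each group lie close together for Otx2 and Cdhr1 and far apart for Tac1.

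Most members were dim. Their mean signal over the 6 arrays had a median of -3.07, against -1.12 for all 12240 probes, and 65 of the 123 member probes (52.8%) lay below the lower quartile of all probes. The mean signal of 10 member genes was above 0, the 75th percentile of the array. Otx2 was the brightest of them with a mean signal of 1.86, followed by Gja1 at 1.75 and Lix1 at 1.72. The dimmest were Abcb1b at -5.49, Usp25 at -5.34 and Liph at -5.12. The size of the difference depended on the background correction for dim genes. Normexp was used with an added offset of 50, which pulls dim probes together, and was not tried without it. With this setting, all 123 probes kept a lower mean, and 56 of the 114 genes stayed past 1.5 fold. These included 9 of the 10 genes with a mean signal above 0. Otx2 was at -1.54 with this correction, Cdhr1 at -1.24 and Tac1 at -1.52, and for 48 genes the difference became smaller by more than 1.5 times, as for Lgi1 at -0.93 and Egfr at -0.59.

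**Figure D2:**
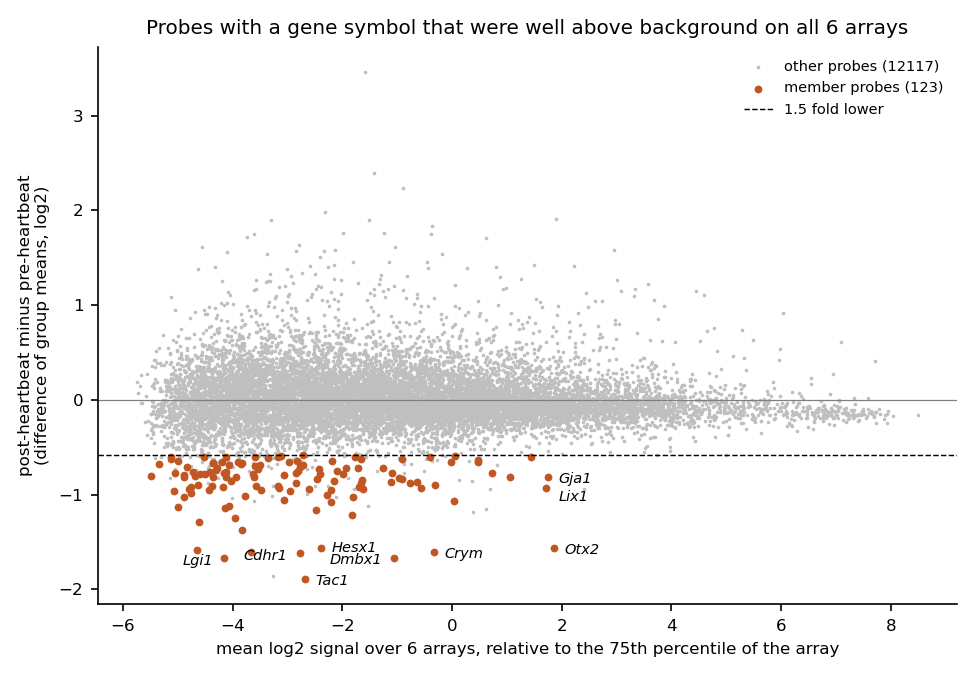
Difference between the group means (log2) against the mean signal over the 6 arrays (log2, over the array's 75th percentile) for the 12240 probes with a gene symbol and a signal well above background on all 6 arrays. The 123 member probes are in color, the dashed line is 1.5 fold lower, and most of the members lie on the left, with Otx2, Gja1 and Lix1 apart on the right.

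Among the members, 7 genes were placed with the regulators of head formation and patterning, and their median difference was -0.93. Otx2, a homeobox gene needed for the forebrain and midbrain and also active in anterior endoderm, had signals of 2.61, 2.57 and 2.73 before and 1.09, 0.96 and 1.19 after heartbeat initiation. Its pre- and post-heartbeat groups were 2.64 ± 0.086 and 1.08 ± 0.11 (mean ± SD, n = 3 each), a difference of -1.56, or 2.95 fold, and the distance between the groups was many times their spread. In the rn4 genome, the position of this probe was 24623454 to 24623513 of chromosome 15, minus strand. Dmbx1, a homeobox gene of the midbrain, had signals of 0.068, -0.59 and -0.15 before and -1.64, -2.06 and -1.97 after heartbeat initiation, and its difference of -1.67 was above that of Otx2 in size. The rn4 position was 136177330 to 136177389 of chromosome 5, minus strand. Hesx1, a homeobox repressor of the anterior neural plate and the pituitary primordium, had signals of -1.71, -1.34 and -1.78 before and -3.03, -2.86 and -3.61 after heartbeat initiation. The post-heartbeat array on slide 2 was the lowest for Hesx1, and the difference was -1.56. This probe maps to 2256942 to 2257001 of chromosome 16, plus strand.

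The other genes of this kind were lower by less. Alx1, which acts in the mesenchyme of the head, had signals of -0.058, -0.12 and -0.14 before and -0.97, -1.20 and -0.94 after heartbeat initiation, a difference of -0.93 with little spread inside a group. Gsc, the goosecoid gene of the organizer and of the mesendoderm in front of the notochord, had signals of -2.38, -2.76 and -2.79 before and -2.97, -3.10 and -3.82 after heartbeat initiation. The lowest of these was post-heartbeat replicate 3, and the difference of -0.65 was among the smaller ones. Pax9, which marks the endoderm of the pharyngeal pouches, met the rule with both of its probes, at -0.75 for the brighter and -0.59 for the dimmer. Gli3, a zinc finger factor through which Hedgehog signals act, had a difference of -0.74 and was dim, with a highest value of -3.46 and a lowest of -4.83. A second, dimmer probe of Gli3, well above background on 4 arrays, was higher after heartbeat initiation by 0.30 on the log2 scale.

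A further 4 members are factors that set the balance between epithelial and mesenchymal states. Snai2, a repressor of E-cadherin known from migrating neural crest, had signals of -3.33, -3.24 and -2.87 before and -4.88, -4.63 and -4.06 after heartbeat initiation and a difference of -1.37. Zeb2, which acts in the same direction, had signals of -1.23, -1.01 and -1.19 before and -2.68, -1.95 and -1.63 after heartbeat initiation, with the post-heartbeat arrays spread over more than 1 unit and a difference of -0.94. Members that are known to promote the epithelial state were lower too. Grhl2, a grainyhead factor of surface ectoderm and gut, had signals of -1.70, -2.42 and -2.05 before and -2.63, -2.85 and -2.86 after heartbeat initiation and a difference of -0.73. Its second probe, dimmer and well above background on 5 arrays, went the other way at 0.49. Ovol2, a zinc finger factor of epithelia, had a difference of -0.80. Among other DNA-binding factors, Lef1, through which Wnt signals act on their target genes, had signals of -1.23, -1.50 and -1.14 before and -2.07, -2.51 and -2.38 after heartbeat initiation and a difference of -1.03. Zfp365 differed by -1.24 with pre-heartbeat replicate 1 well above the other arrays, and Greb1l and Zbtb39 by -0.94 and -0.65.

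The members held secreted signals and antagonists of such signals, 6 genes in all. Grem1, which binds BMP ligands, had signals of -2.06, -3.46 and -3.06 before and -3.74, -4.84 and -4.81 after heartbeat initiation, a difference of -1.60, or 3.04 fold, with a spread of more than 1 unit inside both groups. Dkk1, a Wnt antagonist of the anterior endoderm and the head, had signals of -0.042, -0.35 and -0.57 before and -1.16, -1.27 and -1.18 after heartbeat initiation. Its pre- and post-heartbeat groups were -0.32 ± 0.27 and -1.20 ± 0.061 (mean ± SD, n = 3 each), a difference of -0.88, and the 3 post-heartbeat arrays were almost equal. Wif1, another Wnt antagonist, had a difference of -0.67 at a lower level, with group means of -3.49 and -4.15. Tgfb2, a ligand of the TGF-beta family, had a difference of -0.85 with its member probe, whereas the brightest of its probes differed by -0.21. Pgf, a ligand of the VEGF receptor Flt1, met the rule with both of its probes at -0.82 and -0.73, and was 1 of the bright members with signals of 1.68, 1.32 and 1.38 before and 0.84, 0.59 and 0.49 after heartbeat initiation. Nell2, a secreted glycoprotein of neural tissue, had a difference of -0.68.

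The promoter of Dkk1 is shown because it holds the core of sites bound by Wnt-dependent TCF/LEF factors more than once. It is the RefSeq promoter of the GRCr8 build, 250 bases before to 50 bases after the start of the gene, written 5′ to 3′ in the direction of the gene. The capitals mark CTTTGA, read on either strand, which lies 153 and 96 bases before the start. The region is chr1:237798601-237798900 on the minus strand.
Dkk1: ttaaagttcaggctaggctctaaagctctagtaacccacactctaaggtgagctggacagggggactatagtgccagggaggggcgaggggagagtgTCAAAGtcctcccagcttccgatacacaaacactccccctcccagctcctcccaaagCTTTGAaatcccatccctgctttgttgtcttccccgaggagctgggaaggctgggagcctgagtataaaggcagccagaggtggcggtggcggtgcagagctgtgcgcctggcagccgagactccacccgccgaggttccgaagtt

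Receptors and genes that act in signaling inside the cell were 11 members, Cyp26a1 counted among them, with a median difference of -0.92. Cyp26a1, the enzyme that degrades retinoic acid in the head and the tail of the early embryo, had signals of -0.39, -0.12 and -0.11 before and -1.05, -1.12 and -1.06 after heartbeat initiation. The 3 post-heartbeat values were almost equal and the difference was -0.87, or 1.83 fold. Egfr, the receptor of epidermal growth factor, had signals of -3.62, -3.57 and -3.32 before and -4.57, -4.86 and -4.45 after heartbeat initiation and a difference of -1.12. Il17re, a cytokine receptor of epithelia, differed by -1.05, Akap12, a scaffold for protein kinases, by -1.01, and Amot, an angiomotin that binds the Hippo effector Yap, by -0.96. For Amot, the gap between the groups was 0.094, since post-heartbeat replicate 3 was close to the pre-heartbeat arrays. Of the G protein-coupled receptors, Lpar1, a receptor of lysophosphatidic acid, differed by -0.92, Mrgprx3 by -0.93 and Gpr115, now named Adgrf4, by -0.78. The kinase Mapkapk3 differed by -0.78, Plekhg1, an activator of small GTPases, by -0.81, and Frmd6, which acts upstream in Hippo signaling, by -0.76.

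Cyp26a1 is itself a well known target of retinoic acid, and its RefSeq promoter (GRCr8, chr1:244883572-244883871, plus strand) is shown because it is the only member promoter with a direct repeat of the core of retinoic acid receptor sites. The capitals mark AGTTCA, here read on the opposite strand as TGAACT, which lies 92 and 81 bases before the start with 5 bases in between. This repeat, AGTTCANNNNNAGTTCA on either strand, was found in 3 of 27457 RefSeq promoters of this length and in 1 of the 8427 that belong to genes well above background on all 6 arrays. The motif was looked for after Cyp26a1 was known to be a member.
Cyp26a1: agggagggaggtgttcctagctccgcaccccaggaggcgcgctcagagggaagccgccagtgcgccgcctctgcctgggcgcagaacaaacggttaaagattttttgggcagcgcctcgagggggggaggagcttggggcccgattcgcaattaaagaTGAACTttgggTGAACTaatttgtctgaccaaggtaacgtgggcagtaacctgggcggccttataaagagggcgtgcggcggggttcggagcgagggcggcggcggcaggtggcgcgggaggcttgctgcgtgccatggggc

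Tac1, which encodes the precursor of substance P and neurokinin A, had the largest difference of all members. Its brighter probe, on the plus strand of chromosome 4 from 32657551 to 32657610, had signals of -0.68, -2.71 and -1.81 before and -2.92, -3.56 and -4.38 after heartbeat initiation. The difference was -1.89, or 3.7 fold, but the arrays of each group were spread over more than 1 unit, and the lowest pre-heartbeat array was 0.21 above the highest post-heartbeat array. The second probe of Tac1 met the rule as well, with a difference of -1.58. Other neuropeptide genes were lower by less. Sst, the somatostatin gene, had signals of -1.63, -1.31 and -1.10 before and -2.13, -2.05 and -2.02 after heartbeat initiation and a difference of -0.72. Calca, which encodes calcitonin and the peptide CGRP, differed by -0.78 and Npw, the neuropeptide W gene, by -0.83. Cpe, the carboxypeptidase that trims peptide precursors in secretory granules, differed by -0.95.

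The RefSeq promoter of Tac1 (GRCr8, chr4:36645333-36645632, plus strand) is shown because it is 1 of 5 member promoters with TAATTA, the core of many homeodomain sites, marked here in capitals 111 bases before the start of the gene.
Tac1: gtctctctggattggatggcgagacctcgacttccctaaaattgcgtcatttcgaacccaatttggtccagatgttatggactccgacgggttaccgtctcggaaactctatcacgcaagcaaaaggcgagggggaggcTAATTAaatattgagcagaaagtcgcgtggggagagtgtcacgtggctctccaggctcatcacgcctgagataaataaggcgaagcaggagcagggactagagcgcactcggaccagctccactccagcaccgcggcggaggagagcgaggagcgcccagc

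The largest group of members, 18 genes with a median difference of -0.89, was placed under neuronal cytoskeleton, synapse and guidance with the values known. The group also holds genes known from elsewhere, such as Lix1 and Pmp22. The share of genes with this role among all genes was not counted. None of the 18 genes is in the list of axon guidance cues and receptors. That list held 0 members among 41 tested genes, with 15 lower and 26 higher means and a median of 0.16. Lgi1, a secreted protein of the synapse, had signals of -3.04, -3.35 and -3.56 before and -4.12, -5.14 and -5.71 after heartbeat initiation and a difference of -1.67. Tubb3, the tubulin of young neurons, had signals of -1.40, -1.78 and -1.82 before and -2.40, -2.82 and -3.01 after heartbeat initiation and a difference of -1.08. Gap43, a protein of growth cones, was dim, with signals of -4.37, -4.05 and -4.37 before and -5.27, -5.64 and -4.82 after heartbeat initiation and a difference of -0.98. The post-heartbeat arrays were farther apart than the pre-heartbeat arrays for Gap43, and those of Tubb3 were about equally spread in both groups. Lix1, a gene of the limb and the hindbrain whose product is little described, was bright and nearly equal within groups, with signals of 2.14, 2.11 and 2.29 before and 1.30, 1.30 and 1.15 after heartbeat initiation and a difference of -0.93. Its second probe was far dimmer and differed by -1.01. Stmn2, a binder of tubulin, differed by -0.66 with its member probe and by -0.44 with its brightest probe. Rhbdl3, a rhomboid-like protein of neurons, differed by -1.14, St8sia3, a sialyltransferase of the brain, by -1.03 and Trim2, a ubiquitin ligase of axons, by -0.96. The receptor phosphatases Ptprz1 and Ptprd differed by -0.92 and -0.64, and Gria3, a subunit of the AMPA glutamate receptor, by -0.91. Ctnna2, the alpha-catenin of neurons, differed by -0.88, Lrrn1, a leucine-rich membrane protein of the midbrain border, by -0.86, and Cttnbp2, a cortactin-binding protein of dendrites, by -0.82. At the lower end of this group were Lsamp, an adhesion protein of the limbic system (-0.78), Myo5a, a myosin motor of vesicle transport (-0.77), Prss12, the protease neurotrypsin (-0.77), and Pmp22, a protein of peripheral myelin (-0.60).

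Genes of adhesion and of epithelia were a further group. Cdhr1, a cadherin of photoreceptors, was the most clearly separated of all members, with signals of -1.86, -2.08 and -1.94 before and -3.60, -3.49 and -3.66 after heartbeat initiation. The gap between its groups was 1.41, the largest among the 114 genes, and the difference was -1.62, or 3.07 fold, over 10 spots on each array. Gja1 encodes connexin 43, the main gap junction protein of the later working myocardium. It had signals of 2.23, 2.21 and 2.04 before and 1.41, 1.30 and 1.32 after heartbeat initiation with group means of 2.16 ± 0.10 and 1.34 ± 0.056 (mean ± SD, n = 3 each), a difference of -0.81, and was the 1 connexin of 7 tested that met the rule. The cadherins Cdh11, Pcdh18 and Pcdh8 differed by -0.94, -0.86 and -0.81, and the giant cadherin Fat4 and the nectin Pvrl4, now named Nectin4, by -0.66 and -0.79. Fxyd3, a regulator of the sodium pump in epithelia, met the rule with both probes, at -0.95 and -0.91. The others known from epithelia were lower by less. Emp1, a membrane protein of epithelia, differed by -0.87, Prom2, a prominin of membrane protrusions, by -0.77, and Klk8, a secreted protease, by -0.76. Fermt1, the kindlin of epithelial cells, differed by -0.69, Liph, a lipase of the hair follicle, by -0.60, and Pof1b, an actin-binding protein of cell junctions, by -0.59.

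Another 6 members are best known from endothelial cells, and their differences were small, between -0.78 and -0.60. Fli1, an ETS factor of blood vessels and blood, had signals of -2.75, -2.08 and -2.41 before and -3.19, -3.20 and -2.96 after heartbeat initiation and a difference of -0.70. Erg, a related factor, was brighter with signals of -0.32, 0.057 and -0.041 before and -0.79, -0.95 and -0.36 after heartbeat initiation, and the gap between its groups was 0.041. Angpt2, a ligand of the receptor Tek, differed by -0.77, Rasgrp3, an activator of Ras, by -0.72, Tmem204, a membrane protein of vessels, by -0.72 and Myct1 by -0.78. All 20 endothelial markers on the array were tested, 14 of them had a lower mean after heartbeat initiation, and their median difference was -0.11 against -0.019 for all 10774 genes tested. Their summed level lay between 27.1 and 30.8 times the 75th percentile before and between 25.6 and 29.1 after heartbeat initiation, so that the groups overlapped.

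Endocytic receptors of the yolk sac and the kidney tubule were among the brighter members. Lrp2, the receptor megalin, met the rule with both of its probes, the brighter with signals of -0.13, -1.01 and -0.36 before and -1.29, -1.28 and -1.44 after heartbeat initiation. The difference was -0.84, and pre-heartbeat replicate 2 was close to the post-heartbeat arrays. Dab2, an adaptor through which megalin is taken up, had signals of 0.69, 0.87 and 0.82 before and 0.087, 0.15 and 0.19 after heartbeat initiation with little spread, and its 2 probes differed by -0.65 and -0.60. Colec12, a scavenger receptor, differed by -0.84.

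The enzymes were 11 members. Crym, a thyroid hormone binding protein with enzyme activity, had signals of 1.04, -0.17 and 0.55 before and -0.40, -1.23 and -1.75 after heartbeat initiation and a difference of -1.60, or 3.03 fold. Dpp4, a peptidase of the cell surface, had signals of -1.31, -1.04 and -1.29 before and -2.47, -2.47 and -2.33 after heartbeat initiation, and the groups of its brighter probe were 1.02 apart at a difference of -1.21. The second probe of Dpp4 differed by -0.91. Pla2g10, a secreted phospholipase, differed by -1.17, and Enpp3, an enzyme that cleaves nucleotides outside the cell, by -1.07 at signals of 0.34, 0.76 and 0.58 before and -0.50, -0.57 and -0.44 after heartbeat initiation. Cmpk2, a kinase of mitochondrial nucleotides, differed by -0.96, the sulfatase Arsi by -0.92, and Csgalnact1, which starts chondroitin sulfate chains, by -0.82. Sult1a1, a sulfotransferase, differed by -0.75, the phospholipase Pla1a by -0.70, Usp25, which removes ubiquitin, by -0.68, and Nags, an enzyme of the urea cycle, by -0.60.

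The 8 transporters and pumps were mostly dim. Atp1b4, a relative of the beta subunits of the sodium pump, differed most, by -1.28, and Atp4a, the catalytic subunit of the gastric proton pump, by -0.72. Slc40a1, the iron exporter ferroportin, differed by -0.82, and Abcb1b, an exporter of drugs, by -0.80. The organic anion transporters Slco4c1 and Slco1c1 differed by -0.77 and -0.65, the sugar transporter Slc2a12 by -0.63, and Steap4, a metalloreductase, by -0.60.

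The rest hold S100a4 and S100a6, calcium-binding proteins that differed by -0.68 and -0.63, Lgals3, a galectin (-0.60), and the secreted proteins Ccdc80 (-0.63) and Srpx (-0.66). Actn3, the alpha-actinin of fast skeletal muscle, was dim and differed by -0.90, whereas 10 of the 14 skeletal muscle genes tested had a higher mean after heartbeat initiation (median 0.56). The 11 genes with other roles or with little known of them, were led by Lrrc23 at -1.14 and Prrc2c at -0.90. L1td1, an RNA-binding protein of pluripotent cells, was the brightest of them, with signals of 1.25, 1.07 and 1.02 before and 0.29, 0.27 and 0.48 after heartbeat initiation and a difference of -0.77. Proca1, Gsg1, Raet1l, Syce1, a protein of meiotic chromosome pairing, Cyyr1, Depdc7 and Sept6, a septin now named Septin6, lay between -0.71 and -0.59. Serpina11 met the rule with both of its probes, at -0.65 and -0.81.

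**Figure D3:**
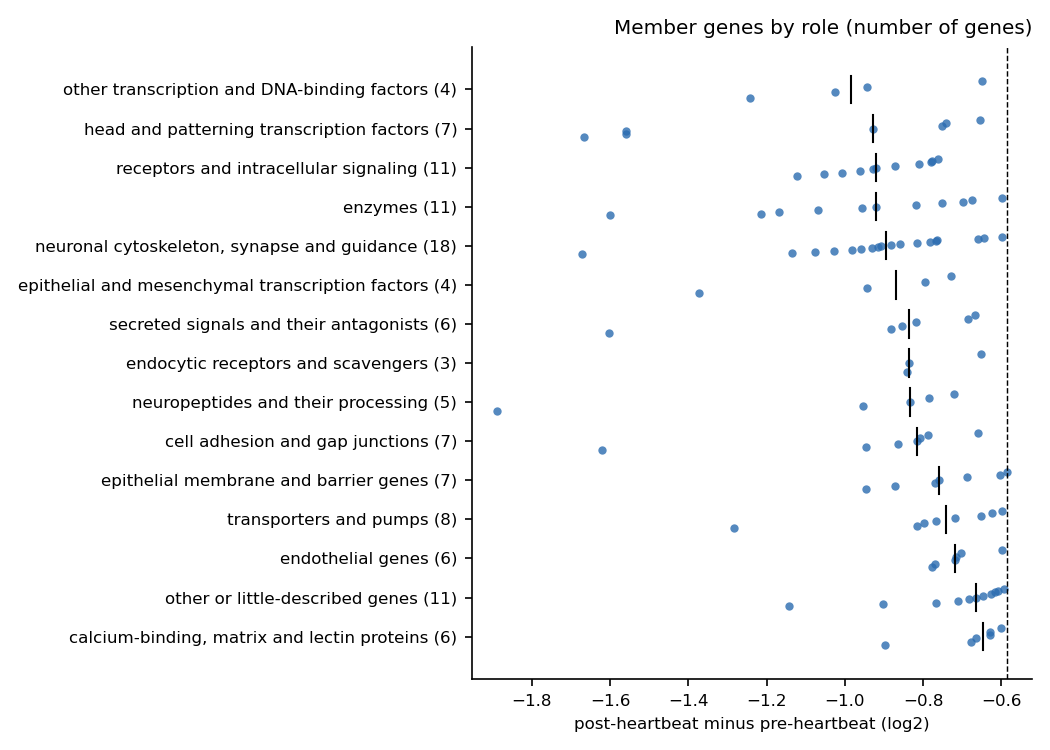
Difference between the group means (log2) of each of the 114 member genes, grouped by role, with the number of genes in parentheses, the median as a bar and 1.5 fold as a dashed line. Genes of most roles reach close to the dashed line, Tac1 at -1.89 lies farthest from it, and the medians lie between -0.98 and -0.65. The roles were assigned with the values known.

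At the threshold, the members just inside were Sept6 at -0.593, the dimmer probe of Pax9 at -0.587 and Pof1b at -0.587. Just outside were Cep290 at -0.582, Car4 at -0.582 and Ttr, the transthyretin gene of the yolk sac endoderm, at -0.579. A further 95 probes were lower by 1.5 fold on average but overlapped between the groups. Among these was Dlx5, a homeobox gene of the surface ectoderm and its placodes. Its mean difference of -1.86 was second only to that of Tac1, and its signals were -1.28, -3.83 and -1.91 before and -3.35, -4.09 and -5.16 after heartbeat initiation, with pre-heartbeat replicate 2 below post-heartbeat replicate 1. It is named here after its values were seen.

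Of the 123 member probes, 8 differed between the slides at a limma adjusted p under 0.05, against 14.3% of the 12240 probes from which they were chosen, and the rule itself favors probes with little spread inside a group. Within slide 1, the differences of the 114 genes lay between -2.56 and -0.13 with a median of -0.83, and within slide 2 between -2.25 and -0.21, also with a median of -0.83. All are below 0 by the rule. The difference was past 1.5 fold on both slides for 62 genes, and it was the larger on slide 2 for 54. The least even was Tgfb2, at -1.38 on slide 1 and -0.22 on slide 2, followed by Zfp365, at -1.88 and -0.87. Otx2, with -1.58 and -1.47, and Cdhr1, with -1.68 and -1.65, were almost the same on both. When the fit held the slide as a block, Tac1 moved to -2.34, and all 123 probes kept a lower mean.

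**Figure D4:**
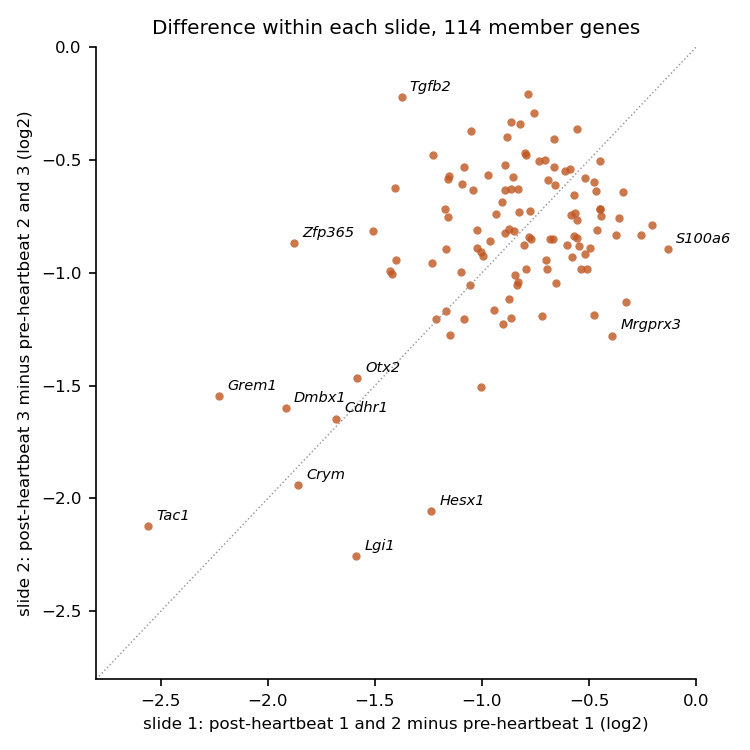
Difference between the groups (log2) of the 114 member genes within each slide, with slide 1 (1 pre-heartbeat and 2 post-heartbeat arrays) on the horizontal axis and slide 2 (2 and 1) on the vertical axis. The dotted line marks equal differences, and Otx2, Cdhr1 and Crym lie close to it while Tgfb2 lies above and Lgi1 and Hesx1 below it.

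Among the arrays, post-heartbeat replicate 2 was the lowest of the 6 for 60 of the 114 genes, replicate 3 for 34 and replicate 1 for 20. On the side of the pre-heartbeat group, replicate 2 was the highest for 50 genes, replicate 1 for 43 and replicate 3 for 21. Averaged over the member genes, the signal was -2.40, -2.38 and -2.40 before and -3.19, -3.37 and -3.25 after heartbeat initiation.

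Of the member genes, 9 met the rule with 2 probes each, namely Tac1, Dpp4, Fxyd3, Lix1, Lrp2, Pgf, Pax9, Dab2 and Serpina11. The array held 40 further probes of 35 member genes, of which 19 in 16 genes passed the background filter. Of these 19, 18 had a lower mean after heartbeat initiation, and the median was -0.44. Of the 19, 6 were lower without overlap, beside 6.40% of the 12240 probes. The exception was a dim probe of Steap4 at 0.092. The member probe was not the brightest tested probe for 11 genes, and there the brightest probe differed by less in 10 of them, as for Trim2 (-0.40), Slc40a1 (-0.44), Rhbdl3 (-0.37), Usp25 (-0.25) and Zbtb39 (-0.14). For Plekhg1, the brightest probe was higher after heartbeat initiation (0.32), mainly through post-heartbeat replicate 3, and was well above background on 5 arrays. The direction for this gene rests on the probe chosen. Prrc2c was represented by 4 probes in all, between -0.69 and -0.91, and Amot by a brighter probe at -0.94. Apart from the member probes, the probes of both genes overlapped between the groups.

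To see what moved beside the members, lists of markers and pathway genes were set against all 10774 genes tested, of which 4 (0.0371%) were called lower and 26 (0.241%) higher by limma, and 68 (0.631%) and 180 (1.67%) with the slide as a block. The member genes make up 1.06% of the genes tested, and 21 of the 114 were in any of the 31 lists. Of 24 neural ectoderm genes listed, 22 were on the array, 15 of them were not well above background on all 6 arrays and 10 were tested. Otx2 and Hesx1 were members, and Otx2 and Mab21l1 were called lower by limma. With the slide as a block, Hesx1 and Lmx1a, a homeobox gene of the roof plate, were called as well. Mab21l1 and Lmx1a were not well above background on any post-heartbeat array, and they were at least 1.74 fold and 7.82 fold lower. They entered the test only through the pre-heartbeat group, and Otx2 and Hesx1 were chosen on the same values. The calls of these genes are therefore no independent test of the list. Others of the list were on both sides of 0, with -0.21 for Sox2, 0.43 for Lhx2 and 0.45 for Irx3, and the median of the list was -0.11. The summed level of its tested genes was between 9.52 and 11.2 before and between 5.75 and 6.13 after heartbeat initiation. Without Otx2 and Hesx1, it was between 3.18 and 4.77 and between 3.39 and 3.88, and the groups overlapped. The mean log2 signal of the list was -1.52, -2.20 and -1.95 before and -2.38, -2.76 and -2.96 after heartbeat initiation. These values did not overlap, but they include Otx2, Hesx1 and the dim Mab21l1 and Lmx1a.

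Of the 15 yolk sac endoderm genes tested, 12 had a lower mean. By limma, 0 were called, with 2 lower at an unadjusted p under 0.05, and 0 again once the slide was a block, with 8 lower and 1 higher at this unadjusted p. Of all 18762 tested probes, 562 (3.0%) were lower at this p without the block, and 773 were lower and 1030 higher with it. Lrp2 at -0.84, Apoa4 at -0.61 and Ttr at -0.58 were the lowest, and Afp at 0.24 and Fgb at 0.42 were on the other side of 0. The summed level of the list was between 54.2 and 58.9 before and between 35.6 and 47.9 after heartbeat initiation, and between 53.7 and 58.1 and between 35.2 and 47.5 without Lrp2, so that its groups did not overlap. Most of this sum was Ttr, at a level between 32.2 and 44.0 before and between 24.1 and 29.2 after heartbeat initiation. Without Ttr, the sum was 25.9, 10.2 and 17.9 before and 18.0, 18.8 and 11.5 after heartbeat initiation, and the groups overlapped. The mean log2 signal of the list overlapped too, at 0.24, -0.77 and -0.12 before and -0.19, -0.17 and -0.97 after heartbeat initiation. The part of yolk sac endoderm in the values of Lrp2, Dab2 and the other members was not tested. The foregut endoderm list had no member among 12 tested genes and a median of -0.13. Cer1 of this list carries no gene symbol on the array and so was not among them. Both of its probes met the rest of the rule, at -1.27 and -1.41. With the slide as a block, Dlx5 of the surface ectoderm list was called lower. This list held Grhl2 and the neural crest list held Snai2, with medians of -0.18 over 9 genes and -0.16 over 8 genes. Perp, a membrane protein of desmosomes, was called higher with the slide as a block (limma adjusted p = 0.014), at 1.18. The summed level of the surface ectoderm list was between 6.25 and 6.70 before and between 6.99 and 8.19 after heartbeat initiation. That order rested on Perp, since without it the sum was between 5.04 and 5.32 before and between 4.46 and 4.99 after heartbeat initiation. The sums without the gene that moved a list most were added after the data were seen.

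**Figure D5:**
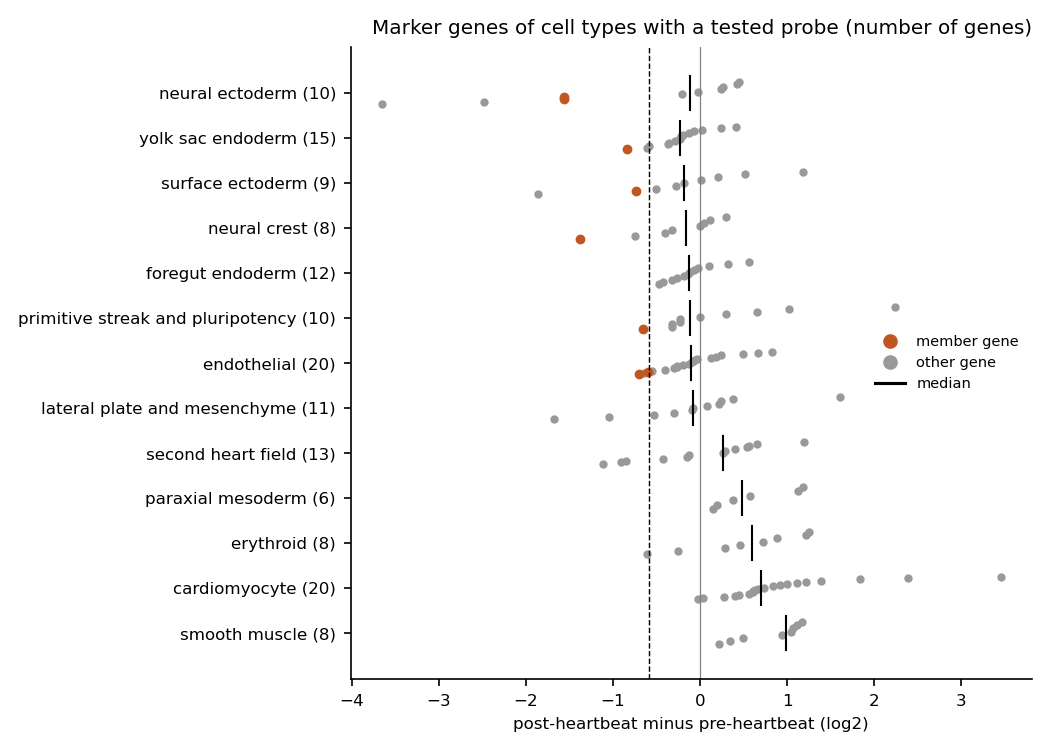
Difference between the group means (log2) of each marker gene with a tested probe, by list, with member genes in color, the median of each list as a bar and 1.5 fold lower as a dashed line. The 2 neural ectoderm genes to the left of Otx2 and Hesx1 are Lmx1a and Mab21l1, which were not well above background after heartbeat initiation, and 19 of the 20 cardiomyocyte genes and all 8 smooth muscle genes lie to the right of 0.

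In the pathway lists, the members stood among genes of both directions. The Wnt list held Lef1, Dkk1 and Wif1 among 36 tested genes, with 15 lower and 21 higher means and a median of 0.065. At the other end of this list were Dkk3 at 1.58 and Wnt11 at 1.20. The list of BMP and TGF-beta signaling held Grem1 and Tgfb2 among 45 genes, with a median of 0.073, and its largest positive differences were those of Lefty1 at 2.69 and Lefty2 at 2.24. Of 16 retinoic acid genes, Cyp26a1 was the lowest and Rxrg the highest at 1.21, and the related enzymes Cyp26c1 and Cyp26b1 were at -0.42 and 0.63. The list of receptor tyrosine kinases held Egfr among 21 genes (10 lower, median 0.12) and that of cell adhesion Cdh11, Pcdh18 and Pcdh8 among 44 (24 lower, median -0.084). In the Hedgehog list, 6 of 8 genes had a lower mean, among them Gli3, Gli2 at -0.46 and Ihh at -0.82, and the median was -0.29. Of the 7 connexins tested, Gja5, the connexin 40 gene, was the highest at 0.57. By limma without the slide, 0 genes of these lists were called, and at an unadjusted p under 0.05 the counts, members included, differed between lists. They were 9 lower and 1 higher for cell adhesion, 3 and 1 for receptor tyrosine kinases, and 2 and 1 for the connexins. Hedgehog had 1 and 0, retinoic acid 2 and 2, Wnt 3 and 3, and BMP and TGF-beta 1 and 5. Among all 18762 tested probes, 562 (3.0%) were lower and 720 (3.84%) higher at this unadjusted p. In the fit that included the slide, cell adhesion had 13 and 4, receptor tyrosine kinases 3 and 2, and connexins 2 and 1. Hedgehog then had 4 and 0, retinoic acid 4 and 2, Wnt 5 and 5, and BMP and TGF-beta 1 and 8. That fit put 773 of all tested probes lower and 1030 higher at the unadjusted threshold. Once the slide was a block, Dkk1, Lef1, Grem1, Cyp26a1, Gja1, Egfr, Cdh11 and Pcdh8 were called lower, all of them members that were chosen on the same values. Of the genes that are no members, Ihh, Ddr2 and Cldn5 were called lower, and Dkk3, Wnt11, Lefty1 and Lefty2 were among those called higher. Ddr2 met the rule except for the background filter, with 1 post-heartbeat array well above background. It entered the test only through the pre-heartbeat group.

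By the array annotation of the rn4 genome, 111 member genes had a position. Chromosome 11 held 8 members among 255 genes well above background on all 6 arrays (3.14%), chromosome 4 held 12 among 558 (2.15%), and chromosome 12 held 0 among 323. Over all 10275 such genes the share was 1.11%. On the other chromosomes it lay between 0.31% on chromosome 14 and 1.88% on the X chromosome. Whether members gather on a chromosome was not tested. Neighbouring members lay within 1000000 bases of each other in 11 pairs, a number that is not set beside that of other genes here. The closest were S100a4 and S100a6, whose probes were 8811 bases apart on chromosome 2, followed by Gap43 and Lsamp, 117444 bases apart on chromosome 11.

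A RefSeq promoter of GRCr8 was at hand for 85 of the 114 member genes and for 8427 genes well above background on all 6 arrays. The members had a median GC content of 56.7% and a median of 13 CpG, against 61.0% and 21 for these genes and 52.3% and 7 for all 27457 promoters. The motifs below were searched on both strands, and each pair of shares is that of the member promoters and that of the 8427 promoters. TATAAA, the TATA box, was found in 9.41% and 7.26%, CCAAT in 31.8% and 38.6%, and GGGCGG, the GC box, in 56.5% and 62.7%. Of the E-boxes, CAGCTG was found in 18.8% and 15.6%, CACCTG in 21.2% and 17.3%, and CACGTG in 9.41% and 9.48%. ACGTG, the hypoxia response core, which overlaps with CACGTG, was found in 25.9% and 26.3%. TAATTA of homeodomain factors was found in 5.88% and 2.23%, CTTTGA of TCF/LEF factors in 14.1% and 11.3%, and AGTTCA of retinoic acid receptors in 15.3% and 9.34%. AGATAA of GATA factors was found in 8.24% and 6.34%, ACAATG of Sox factors in 8.24% and 7.06%, GTAAACA of forkhead factors in 2.35% and 2.30%, and GGAATG of TEAD factors in 11.8% and 11%. TGACGT, the core of cAMP response sites, was found in 7.06% and 12%, TGANTCA of AP-1 in 4.71% and 4.69%, and GTGGGAA of RBPJ in 2.35% and 6.06%. With 85 promoters, 1 promoter is 1.18% of the members, so that the TAATTA share rests on Tac1, Lrrc23, Sst, Fermt1 and Erg alone.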

How the data were processed

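Total RNA of the 6 samples of heart primordium was labelled with Cy3, from 10 ng a sample, and put on 1-color Agilent rat gene expression arrays with probe positions on rn4. Per the file headers, the deposited intensities were read with Feature Extraction 10.7.3.1, which subtracts the background and sets the flags for spots well above it. The authors then used GeneSpring to shift each array to its 75th percentile and divide each probe by a baseline, and the resulting ratio table served as an alternative here. From the intensities, log2 of the processed signal minus the 75th percentile of the array was computed, and spots of a probe were averaged. A probe counted as well above background only if all its spots did. Where a gene had several member probes, the brightest stood for it. Arrays hold no read depth, so the number of arrays limits the precision.

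The members and lists were chosen with earlier results of these data known, and the roles and the motif of retinoic acid receptors were assigned after the values were seen. Genes were named if they were among the 25 with the largest difference, were in a list or family of factors, had 2 member probes, or lay nearest the threshold or at the ends of the signal range. Other members were named by role with their values known. For lists and for counts of calls, limma 3.58.1 in R 4.3.3 tested the 18762 probes well above background on all 3 arrays of a group, with Benjamini-Hochberg adjustment over all of them, 0.05 as threshold, and the brightest probe standing for a gene. Simulated data with known changes served as a check. Of the 123 member probes, limma called 3 lower, beside 0.0213% of all tested probes, or 43 once the slide was a block, beside 0.485%, which is no test of them. Alternatives were background correction, scaling, the authors' ratios, filters, outlier flags, the fold, the blocks, the methods' t-test, and leaving out each array. Symbols and promoters were matched to RefSeq (GRCr8), where all 114 symbols were found, 3 of them under another current symbol (Nectin4, Adgrf4 and Septin6). Python 3.11.15, numpy 2.4.6, pandas 2.3.3 and scipy 1.17.1 were used for the remaining steps.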

Additional observations from a re-analysis of the deposited data

How the results depend on the processing

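Every member probe kept a lower mean after heartbeat initiation under each scaling, block and left-out array, as the rule largely fixes, and all 53 genes named by rule kept their direction. The number of probes that met the rule was 123, against 62 with normexp, 410 with no filter on dim probes and 24 at 2 fold, and that of genes was 114, against 58, 386 and 23. Leaving out 1 array gave 126 to 455 probes and 118 to 413 genes, and fewer arrays then have to be separated. Without pre-heartbeat replicate 1, which leaves that group on slide 2 alone, 338 probes and 309 genes met the rule. Without post-heartbeat replicate 3, which leaves that group on slide 1 alone, 455 and 413 did. The cause of these larger counts was not tested. Quantile normalization gave 136 probes, 120 of them members, and the authors' ratios 132, 119 of them members. Of the genes named, normexp moved 21 by more than their spread and the mean over all probes of a gene moved 6.

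For limma, the probes called lower and higher were 4 and 29, against 7 lower with normexp, 8 lower with an intensity trend, and 11, 12 and 11 higher with quantile scaling, with the percentile taken over probes well above background and with the authors' ratios. With no filter on dim probes, 0 were lower (914 at an unadjusted p under 0.05) and 1 higher. The methods' t-test with Benjamini-Hochberg gave 0 lower and 0 higher (628 and 651 unadjusted). The slide as a block gave 91 and 231. Leaving out 1 array gave 0 to 5 lower (269 to 1309 unadjusted) and 0 to 9 higher. The most, 5 and 9, came without post-heartbeat replicate 3. Of 557 list genes, 2 were called lower and 5 higher. These counts were 1 and 9 with normexp, 0 and 1 with no filter, 1 lower among 515 well above background on all arrays, 20 and 34 with the slide as a block, 0 and 0 by the methods' t-test, 3 higher with the authors' ratios and 9 higher with an intensity trend. Without 1 array they were 0 to 2 lower and 0 to 3 higher. The cause of these shifts was not tested.

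The labels do not say whether replicate numbers pair the samples, and they were treated as unpaired. The deviations from the group means of same-numbered samples correlated at 0.66, -0.29 and 0.51 for numbers 1, 2 and 3, and pre-heartbeat replicate 2 correlated best with post-heartbeat replicate 3 (0.51). All pairs on the same slide correlated above 0 and all pairs on different slides below 0. The samples with number 2 were on different slides, so these values cannot show whether the numbers pair the samples. With the replicate block, limma called 55 probes lower and 112 higher, and 11 list genes lower and 16 higher.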

Other observations

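The rule asks for a gene symbol on the array, and 40 probes without one met the rest of it. Among them were both probes of Cer1, the cerberus gene, whose product is an antagonist of Nodal, BMP and Wnt secreted by anterior endoderm, named here through its RefSeq accession. The brighter probe of Cer1 had signals of -0.14, -0.25 and -0.96 before and -1.54, -1.64 and -1.99 after heartbeat initiation, a difference of -1.27, and the dimmer one differed by -1.41. By the same match, Sertm1 differed by -1.04 and Mturn, a gene of neural differentiation, by -0.72, and 4 probes of the predicted gene LOC686041 lay between -1.20 and -0.83.

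A further 61 probes of 60 genes met the rule except that they were not well above background on every post-heartbeat array, and 20 genes were so on none of these arrays. For such genes, the difference is a bound, the mean signal before heartbeat initiation against the lowest signal well above background on each array afterwards. Where the measured signal of an array was above that lowest signal, the measured signal was used. Lmx1a, with signals of -1.96, -3.34 and -3.54 before heartbeat initiation, was at least 7.82 fold lower. Myh15, a myosin heavy chain, was at least 4.38 fold lower and Cga, the shared alpha subunit of the pituitary glycoprotein hormones, at least 3.1 fold. Calb2, the calcium-binding protein calretinin, was at least 2.83 fold lower, Fam131b at least 2.71 fold and Aqp9, a water and glycerol channel, at least 2.48 fold. As the rule asks, the 3 pre-heartbeat arrays were above the 3 post-heartbeat arrays in each of these genes. The genes passed the background filter only through the pre-heartbeat group. These genes are named after their values were seen.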
